A study of Homo sapiens with 12 samples.

Results

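The genes of Polycomb repressive complex 2 (PRC2) were followed through treatment with a PI3K inhibitor and an EZH2 inhibitor in C4.2B cells, an established line of castration-resistant prostate cancer. The members were taken by name: the catalytic subunits EZH1 and EZH2, the core subunits EED, SUZ12, RBBP4 and RBBP7, and the accessory subunits JARID2, AEBP2, MTF2 and PHF19. All 10 were among the 23228 genes of the count files, and all 10 were among the 14189 genes that passed the filter on low counts. PolyA RNA was sequenced from 4 arms of 3 libraries (A, B and C). The arms were DMSO, GDC-0941 at 0.5 µM (GDC, an inhibitor of PI3K), GSK126 at 5 µM (GSK, an inhibitor of EZH2), and both agents at those doses (COMBO). Every arm was collected 24 h after the last treatment in medium with 10% charcoal-stripped serum, but the GSK and COMBO cells had also been held in GSK126 for 6 days beforehand, so exposure to GSK126 was longer than exposure to GDC-0941. All libraries came from 1 cell line, in which plates were the replicates, and p-values therefore measure the spread between plates of that line.

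PRC2 methylates histone H3 on the lysine called H3K27, a mark of silenced chromatin. EZH1 or EZH2 carries the catalytic SET domain and works only when bound to EED, which reads the methylated product, and SUZ12, the scaffold of the complex. RBBP4 and RBBP7 are histone-binding WD40 proteins that also serve other chromatin complexes, while accessory subunits sort the complex into the PRC2.1 class (with MTF2, PHF19 or PHF1) and the PRC2.2 class (with JARID2 and AEBP2). EZH2 is typical of dividing cells and is often abundant in advanced prostate cancer, whereas EZH1 is also present in cells that do not divide. GSK126 blocks the enzyme, so transcript levels measure neither its inhibition nor the amount of assembled complex.

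Each library held 8785218 to 44437751 counts in genes, with the highest in DMSO C, and members had between 67 counts (PHF19 in GSK A) and 11939 counts (RBBP4 in DMSO C). The share of reads that the counting step assigned to no feature was 14.2% ± 0.481 for DMSO, 15.6% ± 0.268 for GDC, 18.8% ± 0.264 for GSK and 21.8% ± 1.07 for COMBO (SD, n = 3). Reads in introns and reads between genes were not told apart in it. Their part in the results was not tested. All 8 prostate luminal markers examined were expressed, with KLK3 at 597 CPM on average under DMSO. Under COMBO 6 of them were higher and 1 lower than under DMSO (KLK2 by 1.64 and KLK3 by 1.63 on the log2 scale, HOXB13 at -0.68). Among all genes tested, 43.3% were higher and 39.2% lower in that comparison. Of 7 markers of other cell types, PTPRC, PECAM1, COL1A2, KRT5, KRT14 and TP63 had at most 7 counts in any library, and COL1A1 stood at 10.1 to 11.3 CPM under DMSO, 10.8 to 13.7 under GDC, 24.4 to 36.8 under GSK and 27.5 to 45.9 under COMBO. The part of these markers in the results was not tested. CPM are counts relative to library size after TMM scaling. In bulk RNA, fewer cells that express a gene and less of its RNA per cell cannot be told apart.

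The main pattern was a split among the members: EZH1 and JARID2 were higher in all 3 inhibitor arms, while EZH2, EED, SUZ12 and MTF2 were lower in all 3. Against DMSO, GDC changed 7 of 10 members, 3 higher and 4 lower (adjusted p under 0.05 in edgeR's quasi-likelihood test, with Benjamini-Hochberg adjustment over all genes tested, as in every comparison that follows). Among all genes tested in that comparison, 20.0% were higher and 20.0% lower. GSK changed all 10 members, 2 higher and 8 lower, against 40.0% higher and 35.7% lower among all genes. COMBO also changed all 10, again 2 higher and 8 lower, against 43.3% and 39.2%. The median log2 fold change of the members was -0.052 under GDC, -0.63 under GSK and -0.84 under COMBO, while the median over all genes tested was 0.016, 0.058 and 0.054. With a log2 change of 1 or more in size also required, 0 members were called under GDC (1.87% of all genes tested), 2 under GSK (21.9%) and 5 under COMBO (31.1%). These 3 comparisons share the DMSO libraries and are not independent of each other.

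**Figure D1:**
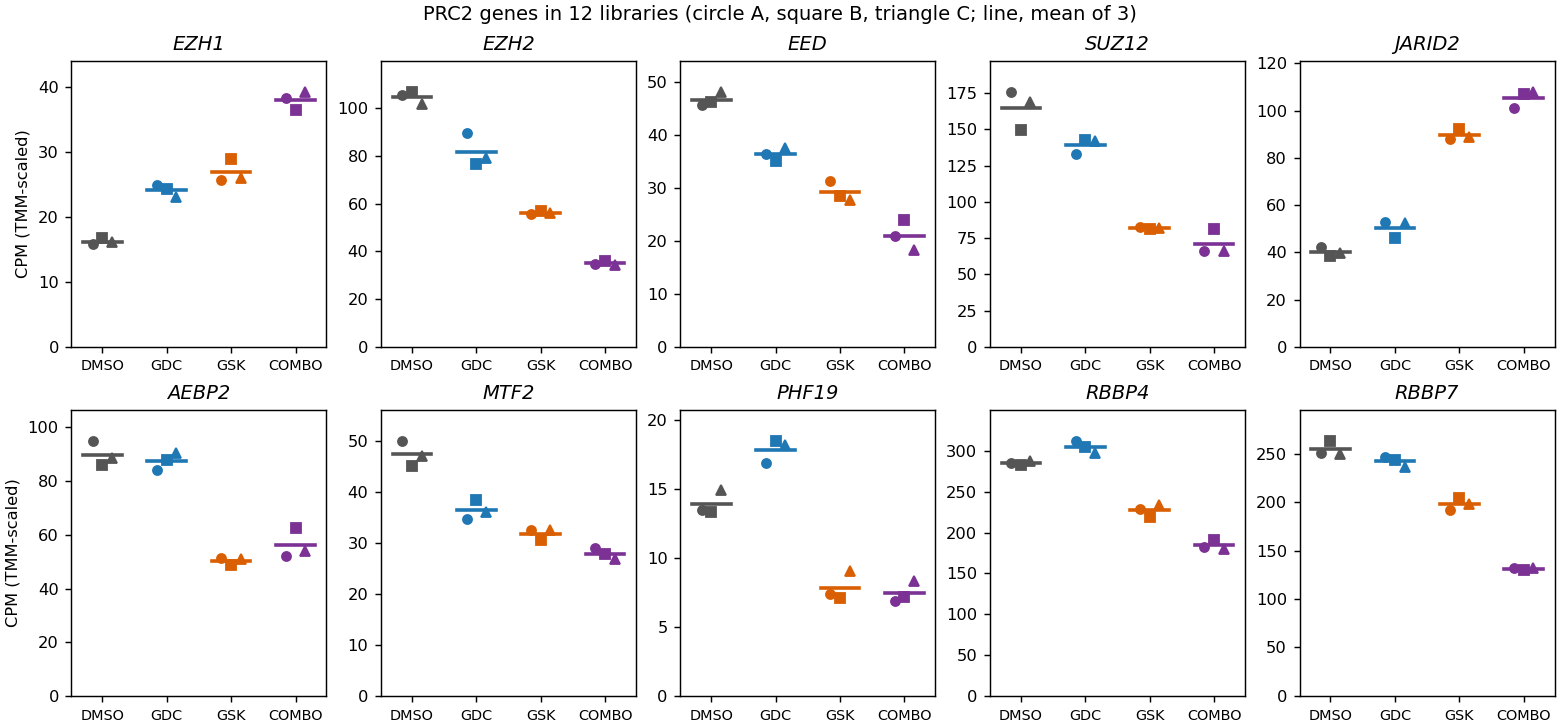
Normalized level (CPM, linear axes from 0, a scale of its own in each panel) of the 10 PRC2 genes in each of 12 libraries by arm, with the mean of 3 as a line. EZH1 and JARID2 are highest under COMBO, the other 8 genes are lower under COMBO than under DMSO, and PHF19 and RBBP4 are highest under GDC.

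The catalytic subunits moved in opposite directions. EZH2 stood at 105, 107 and 102 CPM under DMSO (A, B and C), 89.6, 76.4 and 79.3 under GDC, 55.7, 57.1 and 56.0 under GSK, and 34.7, 35.9 and 34.3 under COMBO. No arm overlapped another, and the order was DMSO, GDC, GSK and COMBO from high to low. Its log2 fold change against DMSO was -0.36 under GDC (adjusted p = 3.50e-05, SE 0.054), -0.89 under GSK (adjusted p = 2.44e-11, SE 0.057) and -1.58 under COMBO (adjusted p = 1.37e-15, SE 0.058), the last a 2.98-fold lower level. EZH2 lies on chromosome 7 at 148807257 to 148884321 (hg38, minus strand) and has 1 named pseudogene, EZH2P1, with which reads could be shared.

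EZH1, the paralogous methyltransferase, stood at 15.8, 16.7 and 16.1 CPM under DMSO, 24.8, 24.3 and 23.1 under GDC, 25.6, 28.9 and 26.0 under GSK, and 38.3, 36.5 and 39.3 under COMBO. Every treated library was above every DMSO library, and every COMBO library was above the single agents. The log2 fold change was 0.57 under GDC (adjusted p = 4.43e-06, SE 0.071), 0.73 under GSK (adjusted p = 1.79e-08, SE 0.073) and 1.22 under COMBO (adjusted p = 7.61e-13, SE 0.066), or 2.33-fold higher with both agents. The lowest count behind these values was 150, in DMSO A. EZH1 lies on chromosome 17 at 42700275 to 42745049 (minus strand), with no overlapping counted gene and no named pseudogene.

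The promoter windows of 4 members are shown because they include a member that fell most under COMBO (EZH2), its paralog that rose (EZH1), a core subunit that fell (SUZ12) and the other member that rose (JARID2). Each runs from 250 bases before to 50 bases after a RefSeq transcript start (GRCh38.p14, the transcribed strand from 5′ to 3′), and capitals mark a match to an E2F-type octamer on either strand. EZH2 and JARID2 each have another window, at chr7:148883436-148883735 and chr6:15248605-15248904, which is not shown and held no such match.
EZH2, chr7:148884242-148884541, minus strand: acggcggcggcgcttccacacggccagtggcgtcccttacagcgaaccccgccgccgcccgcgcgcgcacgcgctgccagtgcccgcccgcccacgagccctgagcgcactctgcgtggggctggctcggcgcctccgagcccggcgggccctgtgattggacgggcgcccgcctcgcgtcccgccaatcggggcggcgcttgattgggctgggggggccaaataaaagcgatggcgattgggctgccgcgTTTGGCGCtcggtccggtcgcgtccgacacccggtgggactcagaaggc
EZH1, chr17:42744991-42745290, minus strand: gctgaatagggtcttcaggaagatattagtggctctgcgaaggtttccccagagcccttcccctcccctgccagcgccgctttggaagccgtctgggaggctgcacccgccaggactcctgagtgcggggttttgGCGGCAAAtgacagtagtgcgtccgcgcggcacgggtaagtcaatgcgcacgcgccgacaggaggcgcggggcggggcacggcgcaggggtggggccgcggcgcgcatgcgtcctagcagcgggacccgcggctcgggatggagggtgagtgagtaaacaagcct
SUZ12, chr17:31936757-31937056, plus strand: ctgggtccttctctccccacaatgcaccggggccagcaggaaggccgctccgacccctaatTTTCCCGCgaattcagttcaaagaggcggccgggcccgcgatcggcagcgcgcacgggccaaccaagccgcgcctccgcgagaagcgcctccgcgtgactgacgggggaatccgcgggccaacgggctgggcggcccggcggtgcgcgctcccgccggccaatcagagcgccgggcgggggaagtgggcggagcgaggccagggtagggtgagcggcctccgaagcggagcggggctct
JARID2, chr6:15245819-15246118, plus strand: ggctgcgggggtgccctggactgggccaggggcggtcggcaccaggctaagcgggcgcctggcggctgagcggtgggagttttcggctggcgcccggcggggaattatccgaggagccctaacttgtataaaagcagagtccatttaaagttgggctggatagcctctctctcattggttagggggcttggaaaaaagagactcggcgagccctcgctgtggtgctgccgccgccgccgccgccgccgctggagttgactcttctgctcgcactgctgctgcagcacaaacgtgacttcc

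The octamers searched on both strands were TTTCCCGC, then TTTCGCGC, then TTTGCCGC and last TTTGGCGC, forms of the site bound by E2F factors, which drive genes of DNA replication. Of 15 windows of the 10 members, 6 held a match (40%), compared with 3.31% of 35116 RefSeq windows of the same length. EZH2 had TTTGGCGC starting at the base numbered 2, where the transcript starts at 1. SUZ12, MTF2 and PHF19 had TTTCCCGC, and EZH1 and AEBP2 had TTTGCCGC. JARID2, EED, RBBP4 and RBBP7 had none in these windows, so a match was present both in a gene that rose (EZH1) and in genes that fell. The CCAAT box was found in 7 of 10 members, with 4 copies in the EZH2 window shown, and in 66.7% of their 15 windows compared with 34.6% of all windows. The E-box CACGTG was found in RBBP4 alone among the members, in 6.67% of their windows compared with 7.26% of all windows. No octamer match overlapped a CCAAT or CACGTG match. These are matches of letters, and binding was not measured. The windows of the members were rich in G and C (52.3% to 79.7%). That content was not measured in all windows, so the shares above are not matched for it.

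To compare EZH1 with EZH2 directly, counts were divided by gene length and the ratio was taken within each library, where scaling between libraries cancels. With the union of annotated exons as length, the EZH2:EZH1 ratio was 4.33, 4.15 and 4.09 under DMSO, 2.34, 2.04 and 2.23 under GDC, 1.41, 1.28 and 1.40 under GSK, and 0.588, 0.638 and 0.567 under COMBO. The arms did not overlap. On the log2 scale the ratio differed from DMSO by -0.93 under GDC, -1.62 under GSK and -2.81 under COMBO, a 7.02-fold difference for COMBO. Each pair of arms gave p = 0.1 in a two-sided exact permutation test, which is the smallest p that 3 libraries against 3 can give, so no pair could pass 0.05. Over all 15400 assignments of the libraries to 4 arms, the exact permutation p was 6.49e-05, the smallest possible.

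EZH1 made up 19.3% ± 0.458 of the summed EZH1 and EZH2 counts per kb under DMSO, 31.3% ± 1.52 under GDC, 42.3% ± 1.30 under GSK and 62.6% ± 1.41 under COMBO (SD, n = 3). The sum itself went from 12.03 ± 0.290 CPM per kb under DMSO to 11.04 ± 0.724 under GDC, 9.07 ± 0.329 under GSK and 8.68 ± 0.127 under COMBO. Which enzyme led under COMBO depended on the length assumed. The mean EZH2:EZH1 ratio under COMBO was 0.597 with union exons (10774 bases for EZH2, 6988 for EZH1), 0.948 with the longest transcript (4502 and 4633 bases) and 1.61 with the MANE Select transcript (2654 and 4633 bases), a length chosen after the data were seen. In DMSO, EZH2 led under each length, with ratios of 4.19, 6.65 and 11.3. The log2 difference of the EZH2:EZH1 ratio between arms does not depend on the length, which cancels in it, but the share and the sum do. With the MANE Select transcript the EZH1 share was 8.15% under DMSO and 38.4% under COMBO, and the sum was 42.9 and 21.4 CPM per kb.

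**Figure D2:**
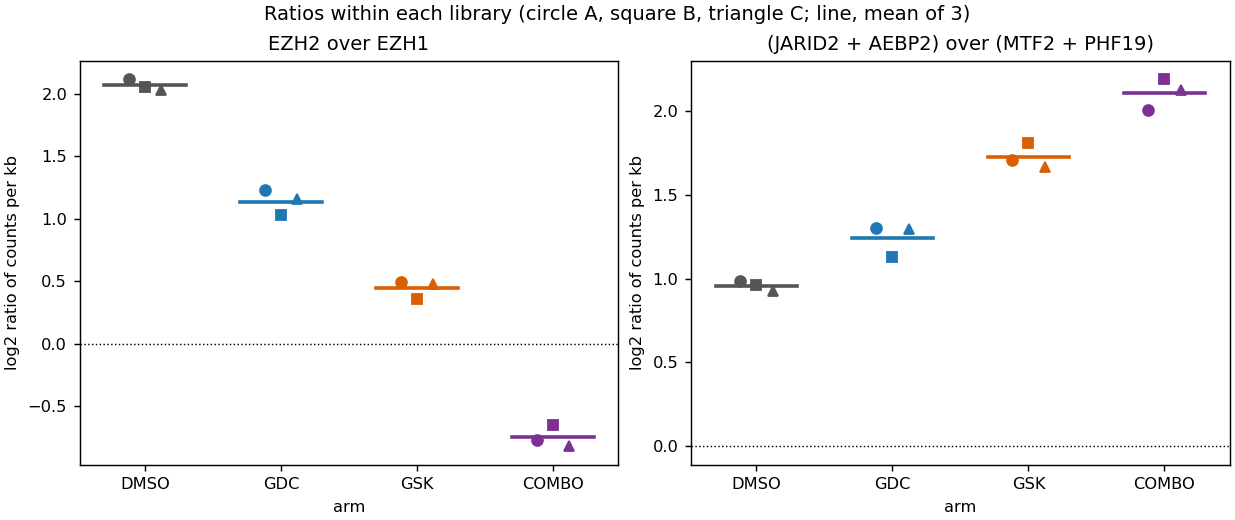
Log2 ratio of counts per kb (union of exons) in each library by arm: EZH2 over EZH1 at left, and summed JARID2 and AEBP2 over summed MTF2 and PHF19 at right, with the mean of 3 as a line and 0 as equal levels. The mean at left goes from 2.07 under DMSO to -0.75 under COMBO, a level that depends on the length used, and at right from 0.96 to 2.104.

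Among the core partners, EED and SUZ12 fell with EZH2. EED, the subunit that binds trimethylated H3, stood at 45.6, 46.3 and 48.2 CPM under DMSO, 36.4, 35.1 and 37.5 under GDC, 31.3, 28.5 and 27.8 under GSK, and 20.8, 24.0 and 18.2 under COMBO. The arms were ordered as for EZH2 and did not overlap. Its log2 fold changes against DMSO were -0.37 (adjusted p = 0.000511, SE 0.073), -0.69 (adjusted p = 1.21e-07, SE 0.078) and -1.14 (adjusted p = 2.16e-11, SE 0.076) under GDC, GSK and COMBO.

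SUZ12 stood at 176, 149 and 169 CPM under DMSO, 133, 143 and 142 under GDC, 82.7, 81.2 and 81.7 under GSK, and 65.9, 81.1 and 66.1 under COMBO. Its log2 fold change was -0.24 under GDC (adjusted p = 0.00945, SE 0.069), -1.01 under GSK (adjusted p = 1.45e-10, SE 0.073) and -1.20 under COMBO (adjusted p = 3.14e-12, SE 0.071). All COMBO libraries were below all GSK libraries, though COMBO B (81.1 CPM) lay just under GSK B (81.2 CPM). SUZ12 has a named pseudogene, SUZ12P1, as EED has EEDP1, so their reads are uncertain to that extent.

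RBBP4 and RBBP7 had the smallest changes of all members under GSK. RBBP4 had 283 to 287 CPM under DMSO, 297 to 312 under GDC, 219 to 234 under GSK and 180 to 191 under COMBO. RBBP7 had 250 to 263 CPM under DMSO, 236 to 247 under GDC, 192 to 204 under GSK and 130 to 132 under COMBO. Neither passed the test under GDC, with log2 fold changes of 0.096 for RBBP4 (adjusted p = 0.0731, SE 0.042) and -0.072 for RBBP7 (adjusted p = 0.184, SE 0.042). Both fell under GSK, by 0.33 and 0.36 on the log2 scale (adjusted p = 7.05e-07 and 2.09e-07), and under COMBO, by 0.63 and 0.96 (adjusted p = 2.28e-11 and 3.48e-14). Of 19 alternative analyses, RBBP7 under GDC passed the test in 6 and RBBP4 in 1 (library totals, adjusted p = 0.0130). RBBP4 overlaps the counted gene SYNC and has 7 named pseudogenes, and RBBP7 overlaps TXLNG. Use of strand in counting was not stated, so these levels are uncertain.

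The accessory subunits did not move as a class. JARID2, which brings PRC2.2 to chromatin and is related to the Jumonji proteins, stood at 42.2, 38.5 and 39.6 CPM under DMSO, 52.8, 46.1 and 52.4 under GDC, 87.9, 92.1 and 88.9 under GSK, and 101, 107 and 108 under COMBO. The arms did not overlap, and the widest gap lay between GDC and GSK. The log2 fold change was 0.33 under GDC (adjusted p = 0.000220, SE 0.061), 1.17 under GSK (adjusted p = 6.44e-13, SE 0.059) and 1.40 under COMBO (adjusted p = 7.74e-15, SE 0.057), or 2.64-fold higher under COMBO. JARID2 lies on chromosome 6 at 15246069 to 15522042.

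AEBP2, the zinc finger partner of JARID2 in PRC2.2, went the other way. It stood at 95.04, 85.9 and 88.7 CPM under DMSO and 84.1, 87.9 and 90.5 under GDC, which overlapped, and at 51.3, 48.7 and 51.1 under GSK and 52.3, 62.7 and 54.1 under COMBO. The log2 fold change was -0.031 under GDC (adjusted p = 0.720, SE 0.061), -0.83 under GSK (adjusted p = 5.83e-10, SE 0.066) and -0.66 under COMBO (adjusted p = 4.95e-09, SE 0.062).

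PHF19 and MTF2 are Polycomb-like proteins that recruit PRC2.1. MTF2 stood at 50.1, 45.2 and 47.1 CPM under DMSO, 34.8, 38.5 and 36.1 under GDC, 32.5, 30.6 and 32.5 under GSK, and 29.0, 27.8 and 26.9 under COMBO, with no overlap between arms. It fell by 0.37 under GDC, 0.57 under GSK and 0.76 under COMBO on the log2 scale (adjusted p = 7.43e-05, 9.44e-08 and 4.02e-10). PHF19 stood at 13.5, 13.3 and 14.9 CPM under DMSO, 16.9, 18.5 and 18.2 under GDC, 7.36, 7.11 and 9.07 under GSK, and 6.91, 7.19 and 8.30 under COMBO. It was the member with called changes in both directions: the log2 fold change was 0.35 under GDC (adjusted p = 0.00601, SE 0.094), -0.84 under GSK (adjusted p = 1.06e-06, SE 0.11) and -0.92 under COMBO (adjusted p = 6.32e-08, SE 0.10). The rise under GDC missed the threshold without DMSO B (log2 fold change 0.27, adjusted p = 0.0549) and without GDC B (0.28, adjusted p = 0.0584).

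**Figure D3:**
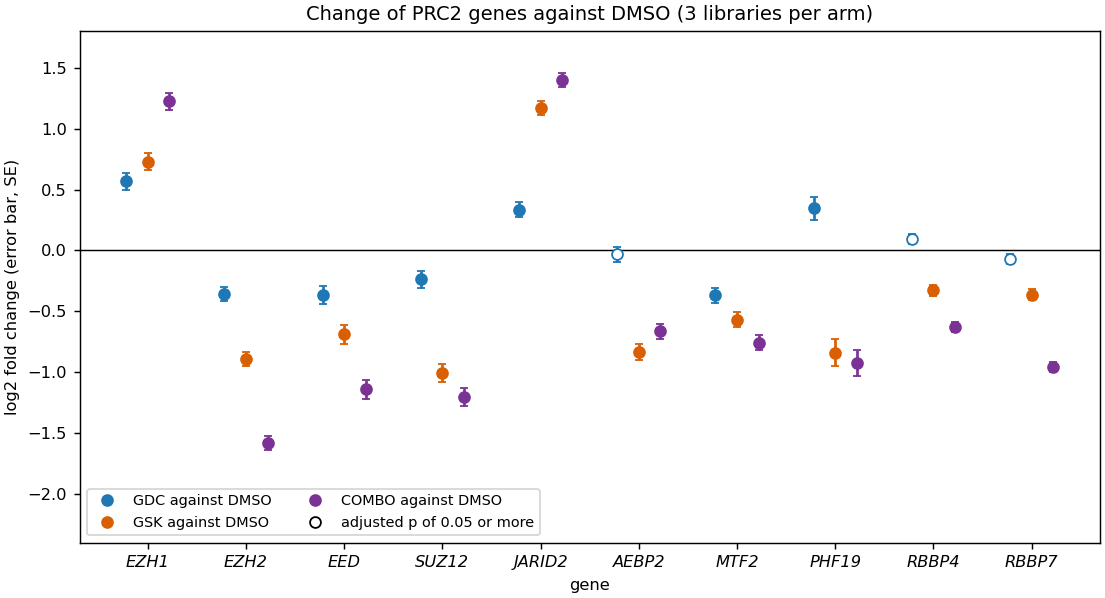
Log2 fold change (± SE) of the 10 PRC2 genes under GDC, GSK and COMBO against DMSO, from the edgeR fit of all 12 libraries with 3 per arm. Open points mark the 3 values under GDC that missed the threshold (AEBP2, RBBP4 and RBBP7), EZH1 and JARID2 lie above 0 in all 3 arms, and EZH2 under COMBO is lowest at -1.58.

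As a ratio of summed counts per kb, PRC2.2 accessory transcripts (JARID2 and AEBP2) stood to PRC2.1 accessory transcripts (MTF2 and PHF19) at 1.94 ± 0.0386 under DMSO, 2.37 ± 0.161 under GDC, 3.31 ± 0.175 under GSK and 4.30 ± 0.277 under COMBO (SD, n = 3). No arms overlapped. The ratio was higher than under DMSO by 0.29, 0.77 and 1.15 on the log2 scale, each with the smallest exact permutation p of 0.1, and the 4-arm exact permutation p was 6.49e-05, again the smallest possible. The numerator went from 19.7 ± 0.995 CPM per kb under DMSO to 25.2 ± 1.25 under COMBO, and the denominator from 10.1 ± 0.435 to 5.85 ± 0.0934. Within the numerator only JARID2 rose (6.42 to 16.9 CPM per kb), while AEBP2 fell (13.3 to 8.32). The fall of the denominator holds for MTF2 and PHF19 only, as PHF1 rose under COMBO (log2 fold change 0.71). PHF1 had 24.4 to 29.9 CPM under COMBO, near MTF2 (26.9 to 29.0), over a shorter union of exons (3596 against 5907 bases). With PHF1 in the denominator, the ratio would be lower and differ less between DMSO and COMBO. That ratio was not computed. With the longest transcripts as length, the ratios were 1.47, 1.77, 2.43 and 3.15, in the same order of arms.

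Per kb of union exons, the members under DMSO were ordered RBBP7 (34.7 CPM per kb), RBBP4 (30.1), SUZ12 (25.1), AEBP2 (13.3), EZH2 (9.71), MTF2 (8.03), EED (6.67), JARID2 (6.42), EZH1 (2.32) and PHF19 (2.11). The libraries of EED overlapped those of JARID2, and those of EZH1 overlapped PHF19, so these neighbours were not separated. In COMBO, JARID2 at 16.9 CPM per kb stood next after RBBP4 (19.5) and RBBP7 (17.9), and EZH1 (5.44) stood above MTF2 (4.72) and EZH2 (3.24). EZH2 and EED (3.003) overlapped there. SUZ12 at 10.8 and AEBP2 at 8.32 lay between JARID2 and EZH1, and PHF19 remained last at 1.13. The order depends on the length used, as the EZH2:EZH1 ratio does.

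The combination was next compared with each single agent. Adding GSK126 to GDC-0941 changed all 10 members, 2 higher and 8 lower, against 37.9% higher and 38.0% lower among all genes tested. EZH1 rose by 0.66 (adjusted p = 1.90e-08, SE 0.066) and JARID2 by 1.07 (adjusted p = 1.15e-12, SE 0.057) on the log2 scale. The greatest falls were in PHF19 (-1.27, adjusted p = 8.47e-10, SE 0.10), EZH2 (-1.22, adjusted p = 2.43e-13, SE 0.059) and SUZ12 (-0.96, adjusted p = 2.10e-10, SE 0.072). No COMBO library overlapped a GDC library for any of the 10, as for most genes tested, of which 38.6% lay wholly above GDC and 38.3% wholly below. With a log2 change of 1 or more also required, 3 members were called, beside 21.8% of all genes.

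Adding GDC-0941 to GSK126 changed 9 of 10 members, 3 higher and 6 lower, against 19.0% higher and 26.9% lower among all genes tested. EZH2 fell by 0.69 (adjusted p = 2.63e-08, SE 0.062), RBBP7 by 0.59 (adjusted p = 1.29e-09, SE 0.044), EED by 0.45 (adjusted p = 0.000199, SE 0.085) and RBBP4 by 0.30 (adjusted p = 9.76e-06, SE 0.043) on the log2 scale. EZH1 rose by 0.49 (adjusted p = 5.34e-06, SE 0.067) and JARID2 by 0.23 (adjusted p = 0.00196, SE 0.055). PHF19 missed the threshold at -0.086 (adjusted p = 0.599, SE 0.12). The remaining calls were close to it: SUZ12 at -0.20 (adjusted p = 0.0379), MTF2 at -0.19 (adjusted p = 0.0262) and AEBP2 at 0.17 (adjusted p = 0.0483). Of 19 alternative analyses, the call was lost in 13 for SUZ12, 17 for MTF2 and 5 for AEBP2. Without COMBO B the AEBP2 value was 0.077 and its call was lost, and without COMBO A the SUZ12 value was -0.11 (adjusted p = 0.287). No member changed by 1 or more on the log2 scale here, beside 2.97% of all genes that did and passed the test.

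The interaction term asked whether both agents together changed a gene by more or less than their separate log2 changes add up to. It passed for 3 of 10 members, all lower than the sum, against 16.5% lower and 4.86% higher among all genes tested. That background depended on the analysis: 2344 genes were lower and 690 higher, but 1319 were lower and 1638 higher with no filter on low counts, and 1279 to 2231 were lower without 1 library at a time, with the fewest without GDC B. RBBP7 was lower than the sum by 0.52 on the log2 scale (interaction -0.52, adjusted p = 4.07e-06, SE 0.061), with 131 CPM observed under COMBO where the sum gives 188. RBBP4 had an interaction of -0.40 (adjusted p = 7.21e-05, SE 0.060), with 184 CPM observed and 243 from the sum. EZH2 had an interaction of -0.33 (adjusted p = 0.00727, SE 0.083), with 34.9 CPM observed and 44.04 from the sum.

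No member had an interaction of 1 or more in size, beside 1.33% of all genes tested that did and passed. The 3 interactions were not equally stable. Those of RBBP7 and RBBP4 passed in all 18 alternative analyses, with the RBBP7 value between -0.52 and -0.43 and the RBBP4 value between -0.41 and -0.30. The EZH2 interaction was lost in 5: with no filter on low counts (-0.23), without DMSO C (-0.25), without GDC A (-0.20), without GSK B (-0.25) and without COMBO A (-0.25). For EZH1 (-0.074, adjusted p = 0.649, SE 0.098), JARID2 (-0.10, adjusted p = 0.407, SE 0.082), EED (-0.085, adjusted p = 0.643, SE 0.11) and SUZ12 (0.040, adjusted p = 0.827, SE 0.10) no departure from the sum was detected. PHF19 (-0.43, adjusted p = 0.0523), AEBP2 (0.20, adjusted p = 0.129) and MTF2 (0.18, adjusted p = 0.169) also missed the threshold, and each passed it in 2 to 4 alternatives.

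**Figure D4:**
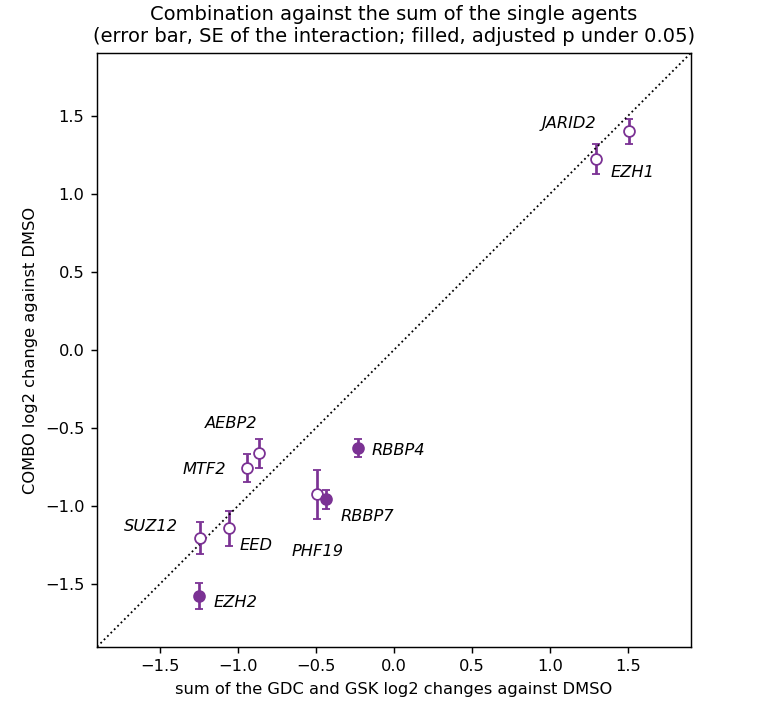
COMBO log2 change against DMSO (vertical) over the sum of the GDC and GSK changes (horizontal) for the 10 PRC2 genes, with the SE of the interaction as error bars and the dotted line where the values are equal. EZH2, RBBP4 and RBBP7 (filled) lie below the line by 0.33, 0.40 and 0.52, and EZH1 and JARID2 lie near it at upper right.

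Other genes of the pathway were then counted in COMBO against DMSO, where 43.3% of all genes tested were higher and 39.2% lower. Of 5 further symbols listed as PRC2 accessory genes, 2 were higher and 1 was lower. C10orf12, 1 of the 5, was not placed in GENCODE 44, so the 5 may not all be separate genes. PHF1, the third Polycomb-like protein, rose (log2 fold change 0.71, adjusted p = 3.82e-07), as did LCORL (0.28, adjusted p = 0.0128). C17orf96, now named EPOP and part of PRC2.1, fell (-1.30, adjusted p = 3.87e-13). The Polycomb-like proteins thus included PHF1 above DMSO with MTF2 and PHF19 below it. All 4 genes that demethylate or acetylate H3K27 were higher, among them the demethylase KDM6B (1.38, adjusted p = 4.71e-14) and the acetyltransferase EP300 (0.51, adjusted p = 4.08e-05). In GDC alone 1 of these 4 was higher and under GSK alone 2, where 20.0% and 40.0% of all genes tested were higher. Of 5 H3K36 methyltransferases, whose product hinders PRC2, 2 were higher and 2 lower, with WHSC1, now NSD2, at -0.97 (adjusted p = 1.70e-13) and ASH1L at 0.64 (adjusted p = 3.73e-06), then WHSC1L1, now NSD3, at -0.35 and SETD2 at 0.23.

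RBBP4 and RBBP7 are shared with other complexes, whose genes were counted as well. Both tested subunits of CAF-1, the replication-coupled histone chaperone, fell under COMBO: CHAF1A by 2.21 and CHAF1B by 2.02 on the log2 scale (adjusted p = 1.30e-17 and 2.50e-16). Of 11 genes of the NuRD remodelling complex, 3 were higher and 7 lower, from MTA2 at -1.32 (adjusted p = 1.99e-15) and HDAC2 at -1.07 (adjusted p = 4.64e-14) to GATAD2B at 0.50 (adjusted p = 1.94e-06) and CHD3 at 1.02 (adjusted p = 3.93e-13). Of 8 genes of the SIN3 deacetylase complex, 1 was higher and 6 lower, with SAP30 at -0.94 (adjusted p = 2.26e-07), ING1 at -0.54 (adjusted p = 4.47e-05) and SIN3B at 0.19 (adjusted p = 0.0162). The median log2 fold change was -2.11 for CAF-1, -0.59 for NuRD and -0.29 for SIN3, beside 0.054 for all genes tested.

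Proliferation genes were lower throughout, as EZH2, EED, SUZ12 and MTF2 were and EZH1 and JARID2 were not. AEBP2, RBBP4, RBBP7 and PHF19 were called lower under GSK and COMBO only. Under GDC, PHF19 was called higher (0.35), and AEBP2, RBBP4 and RBBP7 missed the threshold. All 12 genes of an E2F and proliferation list, which includes MKI67, PCNA and E2F1, were lower under GDC, under GSK and under COMBO. Among all genes tested, 20.0%, 35.7% and 39.2% were lower in these arms. Their median log2 fold change was -0.47, -1.44 and -2.86, and RRM2, a subunit of ribonucleotide reductase, fell most under COMBO (-4.30, adjusted p = 5.49e-21), followed by E2F2 (-3.92, adjusted p = 8.03e-16). The interaction was below 0 and passed for 11 of 12, beside 16.5% of all genes tested. EZH2 (-1.58 under COMBO) thus changed less than the list's median. How far lower proliferation accounts for the PRC2 values was not tested.

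Lastly, the genes with the pattern most like each enzyme were listed by Pearson's r of log2 CPM over the 12 libraries, among 8737 genes with a mean log2 CPM of at least 4. The points share arms, so r mostly describes the ordering of 4 arms. For EZH2 they were LDHA, CCT4, GNL2, MRPL50 and POLR3B, each with r = 0.995. LDHA, a lactate dehydrogenase subunit, went from a mean log2 CPM of 10.54 under DMSO to 9.87 under GDC, 9.10 under GSK and 7.96 under COMBO. For EZH1 they were INPP5K (r = 0.994), SLC35E2 (0.989), CALCOCO1, GPRIN2 and CXCR7 (each 0.988). INPP5K, an inositol polyphosphate phosphatase, went from 4.43 to 5.01, 5.22 and 5.87 in the same order of arms.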

How the data were processed

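PolyA RNA of 12 libraries was measured. Per the labels and the study's methods, STAR mapped the reads to hg38 and HTSeq counted them. The authors deposited raw counts of whole reads, with 5 summary lines that took 23.7% to 33.7% of reads and were left out. Versions, annotation and use of strand are not given in the sources used here. A deposited table of normalized values was not used, and 0 columns remained unmapped. Counts were tested with edgeR 4.0.16 in R 4.3.3 (TMM, filterByExpr, 1 fit with 1 coefficient per arm, Benjamini-Hochberg adjusted p under 0.05, common biological coefficient of variation 0.0499), where the study used DESeq2. Ratios were compared by two-sided exact permutation tests. Lengths and positions are from GENCODE 44. Alternatives were DESeq2 1.42.0, other scalings and filters, a stricter fold, fewer arms, a replicate block, other lengths, and leaving out each library. All members were named. Other lists gave counts and their most changed genes in each direction (up to 2). Members and lists were chosen with earlier results of these data known.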

Additional observations from a re-analysis of the deposited data

Results flagged for a closer look

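For 3 members the effect of GDC-0941 differed between cells with and without GSK126, by the interaction term of the edgeR fit with Benjamini-Hochberg adjustment. RBBP7 differed by -0.52 on the log2 scale (-0.521398, adjusted p = 4.07e-06): GDC-0941 gave -0.072 without GSK126 and -0.59 with it. RBBP4 differed by -0.40 (-0.395419, adjusted p = 7.21e-05): GDC-0941 gave 0.096 without GSK126 and -0.30 with it. EZH2 differed by -0.33 (-0.329182, adjusted p = 0.00727): GDC-0941 gave -0.36 without GSK126 and -0.69 with it. The EZH2 difference was lost in 5 of 18 alternatives, at -0.20 without GDC A, while those of RBBP7 and RBBP4 passed in all 18. Of all genes tested, 16.5% (2344 genes) had such a negative difference, a count that was 1319 with no filter on low counts and 1409 without COMBO A, and the 12 proliferation genes had a median interaction of -1.00. GSK126 exposure lasted longer than GDC-0941 exposure, so order and length of treatment cannot be told apart from the agents.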

How the results depend on the processing

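Of 1130 values of members under the alternatives, 1073 kept their side of the threshold, 42 lost a call, 15 gained one and 0 called values reversed. Some values that missed the threshold throughout changed sign, such as AEBP2 under GDC (-0.098 to 0.0035). In GSK against DMSO, COMBO against DMSO and COMBO against GDC, all 190 values of each kept their direction and their side of the threshold. Calls that also needed a log2 change of 1 or more in size left 0 members called in GDC (1.87% of all genes tested), 2 in GSK (21.9%), 5 in COMBO (31.1%), 3 in COMBO against GDC (21.8%), 0 in COMBO against GSK (2.97%) and 0 in the interaction (1.33%). Higher calls made up 55.4% of interaction calls over all genes with no filter, and 25.1% to 43.7% without 1 library. Without 1 library at a time the count of members called ranged from 6 to 8 in GDC, 6 to 8 in COMBO against GSK, and 2 to 5 in the interaction, where the highest came without DMSO B. The log2 EZH2:EZH1 level in DMSO was 2.73 with the longest transcript, 2.69 with raw counts and 3.49 with MANE Select. In COMBO it was -0.079, -0.12 and 0.68, the last on the other side of 0, because of the shorter EZH2 length. The log2 PRC2.2:PRC2.1 level, taken without PHF1, was 0.56 in DMSO and 1.65 in COMBO with longest or MANE Select transcripts. With raw counts it was 1.08 in DMSO. Library totals in place of TMM moved the median over all genes tested by 0.15 (GSK), 0.21 (COMBO) and 0.17 (COMBO against GDC) on the log2 scale, and the share of calls that were higher to 64.0%, 63.3% and 62.8%. With a replicate block on the letters A to C, 7, 10, 10, 10, 8 and 4 members were called in GDC, GSK, COMBO, COMBO against GDC, COMBO against GSK and the interaction. AEBP2 lost its call in COMBO against GSK (0.17, adjusted p = 0.0619) and PHF19 gained one in the interaction (-0.44). The labels do not say that letters mark shared plates or days: same-letter libraries of different arms correlated at -0.0839 to 0.188, and 6 of 12 correlated best with their own letter, so the block is not the main analysis. Depth limits PHF19 most, with 67 counts in GSK A. Ratios of a pair of arms cannot pass 0.05 with 3 libraries each.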
